A study of Mus musculus with 9 samples.

Results

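Sorted liver macrophages from mice fed a high-fat diet (HFD) and given vehicle were compared with those from mice fed normal chow (NC), across all genes with enough counts to be tested. The comparison takes in 5 of the 9 libraries of the series, 2 NC libraries and 3 vehicle libraries, and 11393 of the 23413 genes in the count table. C57BL/6 male mice, 5 weeks of age when the diets began, received NC (10 kcal% fat) or HFD (60 kcal% fat) for 8 weeks. The HFD-fed mice also received PEG3000, the vehicle of the drug arm, by intraperitoneal injection every 5 days from week 3. No treatment is listed for the NC-fed mice, so that diet and vehicle injection cannot be told apart. Cells positive for F4/80 and CD11b and low for Gr1 were sorted from dissociated livers. The labels describe instead a treatment of purified cells in culture, which goes against the study's own design, and the design was followed. The study gives more mice per group than there are libraries and does not say whether animals were pooled. The sample titles give each library of a group its own mouse number. If the libraries of a group nevertheless do not come from separate mice, the tests measure technical spread alone.

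The liver holds resident macrophages, the Kupffer cells, which line the sinusoids and clear particles, old red cells and lipoproteins from portal blood, and macrophages derived from blood monocytes. In obesity monocyte-derived cells enter the liver, and part of them take up lipid and turn on genes of lipid handling. Sorted suspensions of digested liver also carry fragments and RNA of hepatocytes and sinusoidal endothelial cells, to which macrophages adhere.

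The 5 libraries held between 4565492 and 5518176 counts, and 27% to 44.5% of the counts of each fell on Rn45s, the ribosomal RNA precursor. The NC libraries differed from each other more than any pair of vehicle libraries did. The rank correlation of log2 CPM (counts per 1000000 counts, scaled by edgeR's TMM factors) was 0.740 between the NC libraries and 0.867 to 0.880 between vehicle libraries. By this measure each NC library was closer to every vehicle library than to the other NC library. NC replicate 1 stood apart on the first principal component of the 5 libraries, which carried 42.5% of the variance, at -150.5 against 22.6 to 44.8 for the others, and NC replicate 2 stood apart on the second (29.1%), at -121.7 against 12.5 to 50.9. In NC replicate 1, 200 tested genes were at 0 that had at least 50 counts in NC replicate 2, and 106 genes showed the converse, against 2 to 14 genes between vehicle libraries. Of the tested genes, 12.5% were at 0 in NC replicate 1 and 7.78% in NC replicate 2, against 3.82% to 6.53% in vehicle libraries. Values are therefore given for each library, with the results that leave out a library where it changed a call.

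The genes that define Kupffer cells were measured unevenly, with the highest counts of Clec4f, Timd4 and Cd5l in NC replicate 2 and 0 counts of all 3 in NC replicate 1 and vehicle replicate 3. Clec4f had 0 and 244 counts in NC and 42, 0 and 0 counts with vehicle, Timd4, a receptor for dying cells, had 0 and 28 counts in NC and 7, 0 and 0 counts with vehicle, and Vsig4, a complement receptor, had 4 and 1 counts in NC and 0, 0 and 0 counts with vehicle. Cd5l, secreted by resident macrophages, had 0 and 113 counts in NC and 33, 42 and 0 counts with vehicle. The general macrophage list of 22 genes summed to 24936.5 to 35092.5 CPM in the libraries other than vehicle replicate 2, which had 37224.5 CPM, and the list of monocyte genes to between 6389.5 and 7772 CPM. Csf1r, the receptor of the macrophage growth factor CSF1, had 751 and 385 CPM in NC and 575, 570.2 and 490.4 CPM with vehicle. The cells are therefore called liver macrophages here and not Kupffer cells. Emr1, the gene of the sorting marker F4/80 (now Adgre1), fell from 139 and 115 to 61.5, 67.3 and 55 CPM, a log2 fold change of -1.05 ± 0.38, and -0.93 without vehicle replicate 3, where ± gives the standard error of the fit here and below, and Ccr2, the receptor that draws monocytes to tissue, fell from 514 and 359 to 189, 223 and 147 CPM (log2 fold change -1.23 ± 0.45, and -1.03 without vehicle replicate 3). Ly6c2, a surface protein of inflammatory monocytes, rose from 441 and 609 to 1136, 937 and 1173 CPM (log2 fold change 1.04 ± 0.35, and 0.75 with library size scaling). These calls were lost without NC replicate 1, with log2 fold changes of -0.89, -0.93 and 0.84. The general macrophage list of 22 genes went both ways, with 2 genes higher and 3 lower at the threshold given below, Emr1 among the lower. The higher genes were Aif1 and Mpeg1. Every vehicle library of Aif1 lay above both NC libraries, whereas for Mpeg1 vehicle replicate 2 lay between the NC libraries. None of the list was lower without NC replicate 1 or vehicle replicate 3. In such bulk samples, fewer cells of a kind and less RNA per cell cannot be told apart.

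Genes were called by the threshold of the study, an unadjusted p below 0.05 and at least a 2-fold change in edgeR, with p taken here from the quasi-likelihood test. By this threshold 801 genes (7.03%) were higher and 528 (4.63%) lower with vehicle than in NC. With edgeR's likelihood ratio test 1045 genes were higher and 675 lower. The shares of 7.03% and 4.63% are the background against which each group of genes below is read. With libraries scaled by their size alone, the median over all genes shifted on the log2 scale from 0.03 to -0.26, and 539 genes were higher against 933 lower. Directions are therefore relative to that shift. Without NC replicate 1, 1009 genes were higher and 535 lower, and 437 and 233 of them were among those named first. Without NC replicate 2, 1793 were higher and 841 lower. In every vehicle library, 1713 genes (15%) lay above both NC libraries and 1421 (12.5%) below them. Among the 1873 genes with a mean of at least 50 CPM over the 5 libraries, 110 (5.87%) were higher and 50 (2.67%) lower. Of the 163 genes at the threshold whose fold change is given, 115 held their call without NC replicate 1, and 89 held it in every fit without 1 of the 5 libraries that tested them and with library size scaling. For a gene that lost its call, the log2 fold change in that fit follows its value. Of the genes named without a fold change, Acox3, Atf3, C1qa, C1ra, C4b, Ccr7, Clec4e, Ddit3, Dnajc3, Egr3, Fosl1, Fosl2, Gpnmb, Lss, Mpeg1, Mvk, Myc, Nr4a3, Pecam1, Per3, Psmd11, Slc25a1, Srebf2 and Tlr9 each lost the call in at least 1 of these fits. In what follows the median of a list is that of the log2 fold changes of its tested members. The adjusted threshold was passed by 7 genes (0.0614%), all of them higher. All other genes named had an adjusted p above 0.05 in the same edgeR test, adjusted by Benjamini-Hochberg.

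**Figure D1:**
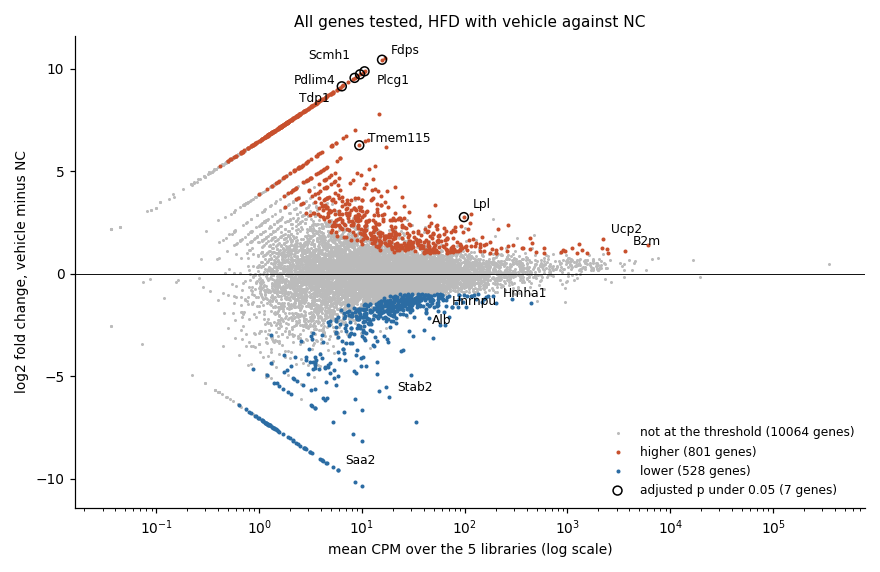
Fitted log2 fold change of vehicle minus NC (y axis) against the mean CPM of each of the 11393 genes over the 5 libraries (x axis, log scale), with genes at the threshold coloured and the 7 adjusted genes ringed. The straight upper and lower edges are genes at 0 in every library of one group, whose fitted change depends on the fit and not on a measured ratio.

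Of the 7 adjusted genes 5 were at 0 in both NC libraries, and their roles differ. Lpl, lipoprotein lipase, which frees fatty acids from circulating triglyceride (chromosome 8 from 68880555 to 68906932, GRCm38), had 21.7 and 22.4 CPM in NC and 121, 231 and 94.9 CPM with vehicle. Its log2 fold change was 2.76 ± 0.42 (adjusted p = 0.0452, edgeR, quasi-likelihood test, Benjamini-Hochberg adjusted), and the NC libraries did not overlap with the vehicle libraries. Of the 7 genes Lpl alone had more than 3 counts in an NC library. Fdps, which makes the farnesyl diphosphate used for sterols and protein prenylation (chromosome 3 from 89093588 to 89101967), was at 0 in NC and had 121, 125 and 117 counts with vehicle, at least 47.3-fold higher (adjusted p = 0.00646, same edgeR test), and has processed copies in the genome that could share its reads. Plcg1, phospholipase C gamma 1, which acts downstream of receptor tyrosine kinases (chromosome 2 from 160731310 to 160775760), had 27.1, 14.3 and 11.6 CPM with vehicle, at least 32-fold higher (adjusted p = 0.0452, same edgeR test). Scmh1, a Polycomb protein (chromosome 4 from 120405150 to 120530200), reached 18.2, 12.2 and 17.6 CPM, and Pdlim4, which links LIM-domain proteins to actin (chromosome 11 from 54054928 to 54069032), reached 20, 15.1 and 7.43 CPM. Tdp1, a DNA repair enzyme that removes stalled topoisomerase I from DNA (chromosome 12 from 99884515 to 99955223), reached 15.8, 11.4 and 4.71 CPM and was at least 19.2-fold higher. The vehicle libraries of Tdp1 and Pdlim4 differed among themselves, with replicate 3 lowest for both. Tmem115, a Golgi membrane protein (chromosome 9 from 107533945 to 107538656), had 0 and 2 counts in NC and 59, 127 and 43 counts with vehicle, a ratio of 88.4-fold (95% counting interval 24.2 to 734). The adjusted count depended on the libraries and the fit. Between 1 and 3 genes passed the adjustment when NC replicate 1 or single vehicle libraries were left out, 568 without NC replicate 2, and 0 in a fit of the NC and vehicle libraries alone. In that last fit 1068 genes had an unadjusted p under 0.05, and DESeq2 on all libraries gave 312 adjusted genes.

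Among well measured genes, with a mean of at least 50 CPM and no overlap between the groups, 96 were higher and 47 lower at the threshold. Lpl was among the 12 higher genes with the smallest p. Ucp2, an uncoupling carrier of the inner mitochondrial membrane (chromosome 7 from 100493337 to 100499629), had 928 and 964 CPM in NC and 3167, 2435 and 3683 CPM with vehicle, a log2 fold change of 1.71 ± 0.28. The NC libraries were close to each other and all vehicle libraries lay well above them. Tgif1, a repressor of SMAD-dependent and retinoid-dependent transcription (chromosome 17 from 70844205 to 70853532), rose from 22.9 and 25.2 to 126, 134 and 92.9 CPM (log2 fold change 2.29 ± 0.46). Max, the DNA-binding partner of MYC, rose from 19.3 and 25.4 to 123, 34.8 and 124 CPM (log2 fold change 2.07 ± 0.50), with vehicle replicate 2 close to NC. Cstb, cystatin B, an inhibitor of lysosomal cathepsins, rose from 83.8 and 65.6 to 182, 199 and 177 CPM (log2 fold change 1.32 ± 0.30), with little spread within either group. Cd164, a sialomucin of the cell surface and endosomes, rose from 16 and 39.2 to 181, 68.6 and 96.6 CPM (log2 fold change 2.06 ± 0.51), and Serpina3g, an intracellular protease inhibitor of the serpin family, rose from 10 and 20.5 to 63.9, 50.6 and 122 CPM (log2 fold change 2.36 ± 0.57). Lgals3bp, a secreted glycoprotein that binds galectin-3, rose from 52.1 and 16.8 to 225, 91.4 and 153 CPM (log2 fold change 2.18 ± 0.52). Il2rb, Cfb, B2m and H2-Q5 complete the 12 and are given with their groups. Of the 12, B2m alone lost its call without NC replicate 1 and with library size scaling. Of the 96 genes, 52 held the threshold without NC replicate 1, and in the separate fit with library size scaling 44 of the 96 did.

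The 12 lower genes with the smallest p held several signalling and nuclear proteins. Hmha1 (now Arhgap45), a GTPase-activating protein of blood cells (chromosome 10 from 80016672 to 80031471), had 393 and 245 CPM in NC and 88.8, 158 and 113 CPM with vehicle, a log2 fold change of -1.41 ± 0.33. Rasgrp4, which activates RAS in myeloid cells, fell from 131 and 62 to 26.9, 30.8 and 24.5 CPM (log2 fold change -1.82 ± 0.43), and Gnb2, a beta subunit of heterotrimeric G proteins, fell from 185 and 66.9 to 36.4, 43.2 and 44.9 CPM (log2 fold change -1.60 ± 0.40). In both, NC replicate 1 was the highest library. Hnrnpu, an RNA-binding protein of the nuclear matrix, fell from 160.1 and 62.6 to 34.4, 37.2 and 21.1 CPM (log2 fold change -1.85 ± 0.44). H2afy, the histone variant macroH2A1, fell from 129 and 46.9 to 31.3, 34.3 and 27.8 CPM (log2 fold change -1.50 ± 0.40), and Add3, an adducin that caps actin filaments, fell from 163 and 57.7 to 47.9, 31.6 and 31.7 CPM (log2 fold change -1.58 ± 0.42). Usf1, a transcription factor that binds E-boxes of lipid and glucose genes, fell from 123 and 78.8 to 39.1, 44.1 and 41.1 CPM (log2 fold change -1.28 ± 0.35). In each of these genes NC replicate 1 lay above NC replicate 2. Without it Hnrnpu, Gnb2, H2afy, Add3 and Usf1 lost their calls, with log2 fold changes of -1.005, -0.68, -0.58, -0.63 and -0.92, and the other 7 held them. Plod3, an enzyme that modifies lysines of collagen, fell from 164 and 122 to 32.6, 51 and 56.3 CPM (log2 fold change -1.62 ± 0.39), and Bloc1s2a, of a complex that sorts cargo to lysosome-related organelles, fell from 109.8 and 68 to 33.5, 32.1 and 25.3 CPM (log2 fold change -1.55 ± 0.41). Of the 12, the remaining genes encode secreted proteins of the acute phase and the liver. Lrg1, a leucine-rich glycoprotein made by hepatocytes and neutrophils, fell from 96.9 and 163 to 30.9, 37 and 22.8 CPM (log2 fold change -2.10 ± 0.52). Saa3, the serum amyloid A of macrophages and fat, fell from 197 and 153 to 95.7, 46.1 and 29 CPM (log2 fold change -1.62 ± 0.46). Gm2083, a major urinary protein gene made by hepatocytes, fell from 60.3 and 194 to 41.3, 14.7 and 12.4 CPM (log2 fold change -2.48 ± 0.58), and belongs to a family of near-identical genes between which reads may be split. Of the 47 genes, 24 held the threshold without NC replicate 1 and 30 without NC replicate 2.

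**Figure D2:**
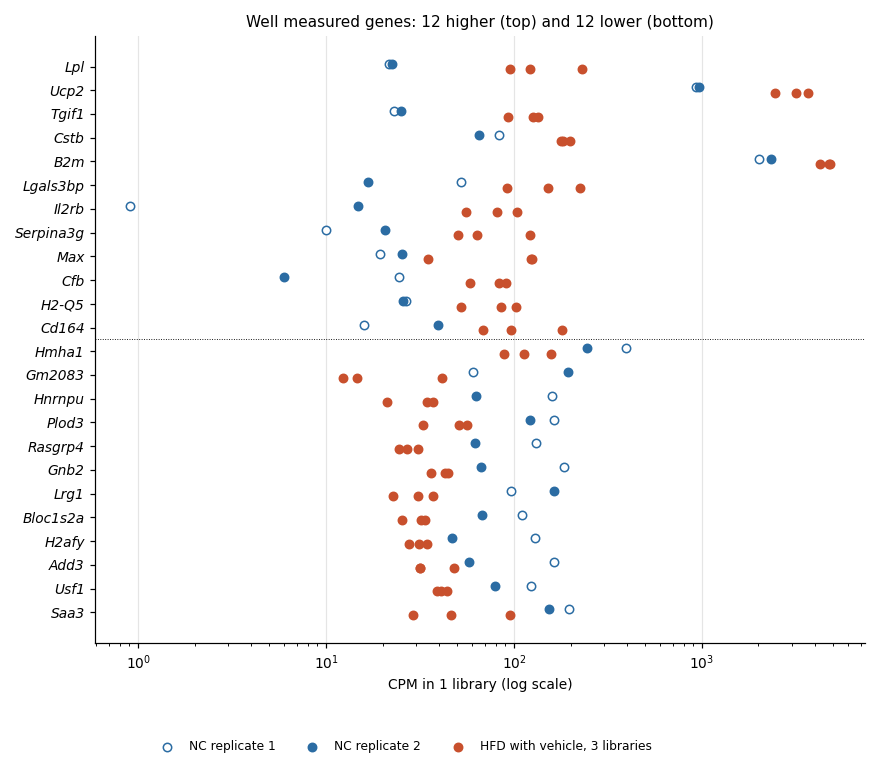
CPM in each library (x axis, log scale) of the 12 higher (top) and 12 lower (bottom) well measured genes with the smallest p, with open circles for NC replicate 1, filled blue circles for NC replicate 2 and red circles for the 3 vehicle libraries. The groups do not overlap by construction, and in most of the lower genes NC replicate 1 lies above NC replicate 2.

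Many genes of hepatocytes and sinusoidal endothelial cells were lower with vehicle. Of 21 hepatocyte genes tested, 10 were lower and none higher, with a median log2 fold change of -2.81 against 0.03 over all genes, and the list summed to 485 and 670.1 CPM in NC and 185 to 229 CPM with vehicle. The hepatocyte median was -3.08 without NC replicate 1 and -1.04 without NC replicate 2, where 6 of the 21 genes had a positive change. Alb, serum albumin, fell from 56.1 and 107 to 21.8, 5.44 and 9.66 CPM (log2 fold change -2.74 ± 0.59). Saa2, an acute-phase protein of the liver, had 76 and 81 counts in NC and 0, 0 and 0 counts with vehicle and was at least 22.2-fold lower. Mup3, a major urinary protein, fell from 34.4 and 26.3 to 4.22, 2.18 and 2.97 CPM (log2 fold change -3.28 ± 0.76), and Saa1 had 56 and 85 counts in NC and 0 with vehicle, at least 20-fold lower. Saa1 and Saa2 are close copies of each other. Of 13 endothelial genes tested, 6 were lower and 1 was higher, with a median of -3.11 and sums of 278 and 440.4 CPM in NC against 27.4 to 56.6 CPM with vehicle. Stab2, the scavenger receptor of sinusoidal endothelium, fell from 38.4 and 51.5 to 0, 0.181 and 1.98 CPM (log2 fold change -6.01 ± 1.67). Clec4g, a lectin of the same cells, fell from 71 and 93.8 to 0, 0 and 1.73 CPM (log2 fold change -7.25 ± 1.69), and Dnase1l3, a secreted DNase made by them and by macrophages, fell from 91.4 and 117 to 12.4, 5.98 and 17.8 CPM (log2 fold change -3.11 ± 0.81). Egfl7, a matrix protein of vessels, fell from 20.2 and 22.2 to 0.888, 0 and 0 CPM (log2 fold change -6.10 ± 1.67). The higher gene was Pecam1, a junction protein of endothelium and leukocytes, from 0.911 and 1.12 to 8.66, 9.07 and 1.73 CPM. The hepatocyte count was 7 without vehicle replicate 2 and 11 without NC replicate 1 or vehicle replicate 1, and the endothelial count 4 without NC replicate 2 and 8 without vehicle replicate 1. The part of such RNA in the other results was not tested.

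The summed levels of T and NK cell genes and of B cell genes were higher in every vehicle library than in NC. Of 16 T and NK cell genes, 6 were higher and none lower, with sums of 240.0 and 750.4 CPM in NC and 819.5 to 1315 CPM with vehicle. Il2rb, the beta chain of the IL-2 receptor (chromosome 15 from 78479256 to 78511621), rose from 0.911 and 14.8 to 103, 55.5 and 80.8 CPM (log2 fold change 3.35 ± 0.81). Cd3e, of the T cell receptor complex, rose from 6.92 and 9.9 to 31.7, 25.4 and 61.2 CPM (log2 fold change 2.23 ± 0.59), Ccl5, a chemokine of T and NK cells, rose from 85.1 and 347 to 402, 740.5 and 668 CPM (log2 fold change 1.48 ± 0.59, 0.81 without NC replicate 1 and 1.31 without vehicle replicate 2), and Zap70, a kinase of T cell receptor signalling, rose from 0 and 4.48 to 4.44, 25.2 and 16.4 CPM (log2 fold change 2.77 ± 1.20, 1.79 without NC replicate 1, 2.21 without vehicle replicate 2 and 2.78 without vehicle replicate 3). For Zap70 the groups overlapped. Of the list, 2 genes were higher without NC replicate 1 or without vehicle replicate 2, and 11 without NC replicate 2. All 13 of the 13 B cell genes tested had a positive change, with a median of 1.55, and 2 were at the threshold. That median was 0.68 without NC replicate 1 and 7.58 without NC replicate 2, where it is a fitted value of genes at 0 in NC replicate 1. Cd79b, of the B cell receptor, rose from 6.92 and 3.74 to 19.8, 47.9 and 38.7 CPM (log2 fold change 2.73 ± 0.95, and 2.39 without NC replicate 2), and Blk, a B cell kinase, had 0 and 0 counts in NC and 16, 33 and 34 counts with vehicle, at least 10.8-fold higher. The B cell list summed to 37.7 and 185 CPM in NC and 189.6 to 413 CPM with vehicle and NC replicate 2 came close to the lowest vehicle library. Without NC replicate 2, 7 B cell genes were higher. Of 14 neutrophil genes, 1 was higher and 4 lower. That list summed to 1700 and 3793 CPM in NC and 2718 to 4211 CPM with vehicle, and the groups overlapped. Mpo, a peroxidase of early granules, rose from 0 and 1.12 to 17.1, 22.9 and 7.68 CPM (log2 fold change 4.79 ± 1.41), whereas Prtn3, another early granule protein, fell from 27.3 and 78.4 to 15.5, 14.9 and 12.4 CPM (log2 fold change -1.89 ± 0.52, and -0.91 without NC replicate 2). Mmp8, a collagenase of specific granules, fell from 251 and 232 to 74.4, 124 and 131 CPM (log2 fold change -1.13 ± 0.45, -1.06 without NC replicate 1, -1.16 without NC replicate 2 and -0.87 without vehicle replicate 1), and Camp, the antimicrobial cathelicidin, fell from 48.3 and 34 to 11.1, 22.5 and 20.8 CPM (log2 fold change -1.18 ± 0.47, -0.89 without NC replicate 1 and -0.88 without vehicle replicate 1). The lower count was 1 without NC replicate 2 or without vehicle replicate 1, and the higher count 4 without NC replicate 2. Dendritic cell genes gave 2 higher of 14, among them Ccr7, the receptor that guides cells to lymph nodes, from 0 and 46.7 to 115, 276 and 142 CPM. That count was 1 without NC replicate 1 or vehicle replicate 3. Erythroid genes summed to between 104 and 3455 CPM, and the groups overlapped. Genes of stellate cells and platelets summed to at most 34.4 and 74.1 CPM.

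**Figure D3:**
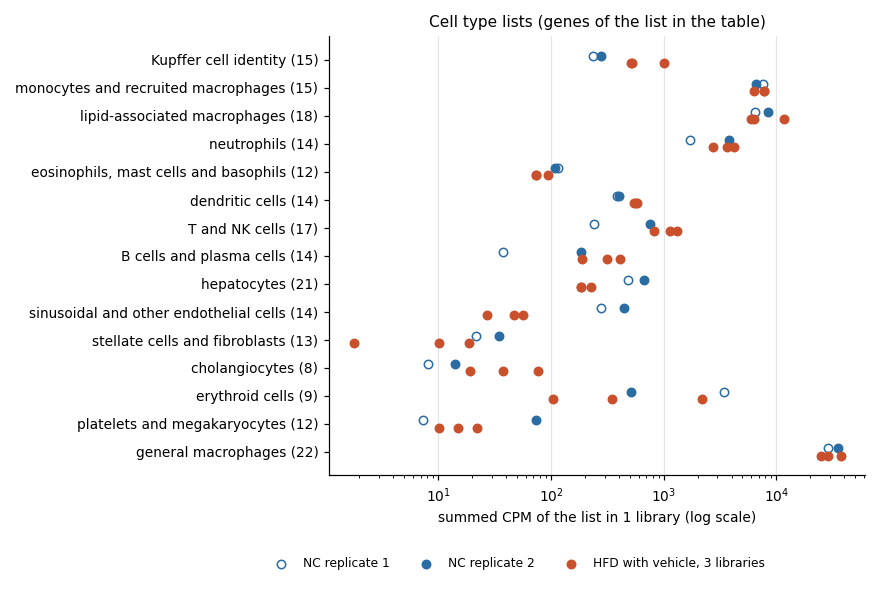
Summed CPM of 15 cell type lists in each library (x axis, log scale), with open circles for NC replicate 1, filled blue circles for NC replicate 2 and red circles for the 3 vehicle libraries. The hepatocyte and endothelial sums were lower in every vehicle library than in either NC library, and the general macrophage and monocyte sums overlapped between the groups.

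Several genes of lipid uptake and storage were higher. Of 18 genes of lipid-associated macrophages, a state described in obese tissue, 6 were higher and none lower, and the count was 5 to 8 when single libraries were left out. Beside Lpl these were Spp1, the secreted phosphoprotein osteopontin, which rose from 2.91 and 8.22 to 37.5, 77.3 and 18.6 CPM (log2 fold change 3.00 ± 0.70), Cd36, a fatty acid and lipoprotein receptor, which rose from 27 and 28.6 to 111, 88 and 81.5 CPM (log2 fold change 1.75 ± 0.47), and Plin2, the coat protein of lipid droplets, which rose from 194 and 203 to 363, 699 and 357 CPM (log2 fold change 1.25 ± 0.37, 0.86 without vehicle replicate 2 and 0.99 with library size scaling). Cd63 and Gpnmb, of lysosomal membranes, were the others, and the median over the list was 0.56, or 0.25 without NC replicate 1 and 1.01 without NC replicate 2. The summed CPM of this list overlapped between the groups. Of 22 lipid droplet and lipolysis genes, 5 were higher and none lower. Of these, Lpin1, which makes diacylglycerol and acts in the nucleus, rose from 2.37 and 1.87 to 14, 15.4 and 11.9 CPM (log2 fold change 2.69 ± 0.76). The groups did not overlap for Lpl, Spp1, Cd36, Plin2 or Lpin1. The droplet count was 4 without vehicle replicate 2 and 8 without NC replicate 2. Cholesterol synthesis gave 5 higher and 1 lower of 28. Insig2, which holds the sterol sensor in the endoplasmic reticulum, had 1 and 0 counts in NC and 32, 50 and 10 counts with vehicle, a ratio of 71-fold (95% counting interval 12.4 to 2834). Fdft1, squalene synthase, rose from 4.55 and 10.3 to 39.7, 19.4 and 16.6 CPM (log2 fold change 1.77 ± 0.66, 1.30 without NC replicate 1 and 1.33 without vehicle replicate 1). The others, Srebf2 and Lss, are named after their values were seen. The gene that fell, Mvk, mevalonate kinase, had 48 and 1 counts in NC and 0, 0 and 2 counts with vehicle, so that its call rests on NC replicate 1. The count of higher genes was 2 without vehicle replicate 1 and 7 without NC replicate 2, 3 genes were higher without NC replicate 1, and the median was 0.28, 1.17 without NC replicate 2 and -0.01 with library size scaling. Scd1, the desaturase that makes oleate, rose from 1.27 and 0.374 to 16, 12.5 and 24.3 CPM (log2 fold change 4.38 ± 1.83, 5.49 without NC replicate 1, 3.79 without NC replicate 2 and 4.13 without vehicle replicate 3), in a list of fatty acid synthesis with 3 of 17 genes higher and none lower, a median of 0.02, and none higher when either NC library was left out. Among 48 genes of fatty acid oxidation and peroxisomes 2 were higher, a share below background, among them Acox3, an oxidase of branched acids, from 6.01 and 11.2 to 36.8, 17.6 and 33.5 CPM, although 11 were higher without NC replicate 2. Of 16 genes of cholesterol efflux and LXR, Scd1 was higher and 3 were lower, with Apoc2, the cofactor of lipoprotein lipase, falling from 139.5 and 199 to 73, 109 and 54.3 CPM (log2 fold change -1.10 ± 0.40, -0.79 without NC replicate 2, -0.999 without vehicle replicate 1 and -0.84 without vehicle replicate 3). That lower count was at most 1 when any single library of the 5 was left out.

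Other lipid enzymes went both ways. Of 29 sphingolipid genes 3 were higher and 4 lower. Ormdl3, which restrains the first enzyme of the pathway, was at 0 in NC with 44, 16 and 9 counts in vehicle, at least 8.98-fold higher. Its relative Ormdl1 fell from 71.6 and 18.1 to 9.99, 18.3 and 6.19 CPM (log2 fold change -1.96 ± 0.61, and -0.63 without NC replicate 1), and Sgpp1, which dephosphorylates sphingosine 1-phosphate, fell from 36.8 and 12.3 to 7.77, 7.98 and 12.4 CPM (log2 fold change -1.39 ± 0.58, -0.39 without NC replicate 1, -1.23 without vehicle replicate 1 and -1.28 without vehicle replicate 2). The groups overlapped for both. No sphingolipid gene was lower without NC replicate 1, and 1 was higher without NC replicate 2. Of 21 prostaglandin and leukotriene genes 1 was higher and 4 lower. Ptges, prostaglandin E synthase, was at 0 in NC with 35, 45 and 3 counts, at least 10-fold higher. Ptgs1, cyclooxygenase 1, had 3 and 108 counts in NC and 3, 2 and 1 counts with vehicle, a ratio of NC to vehicle of 24-fold (95% counting interval 10.7 to 66.7), and Alox15, which oxygenates arachidonic and linoleic acids and marks resident and peritoneal macrophages, fell from 2.19 and 40.3 to 5.77, 2.9 and 0.248 CPM (log2 fold change -2.82 ± 1.13, 0.48 without NC replicate 2, -2.80 without vehicle replicate 2 and -2.25 without vehicle replicate 3). In these 2 genes NC replicate 2 alone was high, and without it the log2 fold change of Ptgs1 was -0.32. The lower count was 1 without NC replicate 2 or vehicle replicate 3 and 6 without NC replicate 1, and the higher count 0 without vehicle replicate 1 or vehicle replicate 2 and 4 without NC replicate 2.

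Immediate early genes, which cells turn on within minutes of a stimulus, were called mostly in 1 direction. Of 30 tested, 11 were higher (36.7%) and 1 lower, with a median of 0.87. In 17 genes every vehicle library lay above both NC libraries, which held for 15% of all genes tested. Zfp36, tristetraprolin, which directs cytokine mRNAs to decay (chromosome 7 from 28376784 to 28379228), rose from 1109 and 1607 to 2849, 2825 and 3714 CPM (log2 fold change 1.20 ± 0.39, 0.97 without NC replicate 1 and 0.90 with library size scaling). Its relative Zfp36l1 rose from 117 and 179 to 394, 296 and 480.2 CPM (log2 fold change 1.39 ± 0.56, 1.13 without NC replicate 1, 1.27 without vehicle replicate 3 and 1.09 with library size scaling), and Klf6, a zinc finger activator, rose from 305 and 336 to 762, 866 and 682 CPM (log2 fold change 1.26 ± 0.47, 1.21 without NC replicate 1 and 0.98 with library size scaling). For these genes no vehicle library came down to the NC level. The remaining higher genes, named after their values were seen, were Egr3, Fosl1, Nr4a3, Atf3, Dusp1, Nr4a1, Myc and Fosl2. Dusp1, the phosphatase that turns off stress kinases, rose from 969 and 1400.3 to 2018, 4079 and 2404 CPM (log2 fold change 1.26 ± 0.54, 1.03 without NC replicate 1, 0.90 without vehicle replicate 2 and 0.99 with library size scaling), and Nr4a1, an orphan nuclear receptor, rose from 626 and 951 to 1575, 1867 and 1869.6 CPM (log2 fold change 1.17 ± 0.50, 0.91 without NC replicate 1, 1.13 without vehicle replicate 2, 1.18 without vehicle replicate 3 and 0.88 with library size scaling). Ier5 was lower, from 137 and 62.2 to 40.4, 63.1 and 34.4 CPM (log2 fold change -1.11 ± 0.45, -0.42 without NC replicate 1, -0.97 without vehicle replicate 1 and -0.89 without vehicle replicate 3), with NC replicate 1 high. The calls moved with the libraries and the scaling, with 3 genes higher without NC replicate 1, 11 without NC replicate 2 and 2 with library size scaling, which also called 2 lower, as against 4 lower without NC replicate 2, with medians of 0.88, 1.04 and 0.57.

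Clock genes were called in both directions. Of 20 tested, 4 were higher and 1 lower, with a median of 0.38, or 1.21 without NC replicate 1 and 0.56 without NC replicate 2. Per1, a repressor of the clock that glucocorticoids and cyclic AMP also induce (chromosome 11 from 69095108 to 69109965), rose from 61 and 74.5 to 357, 195 and 371 CPM (log2 fold change 2.18 ± 0.82, and 2.05 without NC replicate 1). Gm129 (now Ciart), a further repressor of CLOCK and BMAL1 (chromosome 3 from 95878500 to 95882257), rose from 1.46 and 5.23 to 49.1, 14.5 and 11.9 CPM (log2 fold change 2.91 ± 0.91), and Nr1d2, the nuclear receptor REV-ERB beta, rose from 0.182 and 2.24 to 15.8, 5.08 and 6.69 CPM (log2 fold change 2.90 ± 1.16, 2.03 without NC replicate 1 and 2.31 without vehicle replicate 1). Per3 was at 0 in NC and had 13, 30 and 0 counts with vehicle, so that the groups overlapped. The gene that fell was Rora, the activator that competes with the REV-ERB receptors, from 9.29 and 4.67 to 0.888, 0.181 and 1.24 CPM (log2 fold change -3.18 ± 1.09, and -2.60 without NC replicate 1). Without NC replicate 1, 2 were higher and none lower, and 2 were lower without NC replicate 2. The sampling time of day is not given in the sources used here.

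The E-box, the site of the CLOCK and BMAL1 pair and also of USF1 and MYC with MAX, is shown in the promoters of Ciart and Per1, the higher clock genes that hold it within 250 bases before the start. The RefSeq promoter table (GRCm38.p6) matched 9146 of the 11393 tested genes. Motifs were searched on both strands, and the capitals mark CACGTG, which lies at 58, 44 and 116 bases before the start in Ciart and at 166 bases in Per1. The Ciart window is chr3:95882247-95882364, minus strand, and the Per1 window is chr11:69098763-69098808, plus strand, both 5′ to 3′.
Ciart: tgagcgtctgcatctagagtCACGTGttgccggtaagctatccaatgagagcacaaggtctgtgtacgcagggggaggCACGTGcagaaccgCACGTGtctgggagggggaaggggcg
Per1: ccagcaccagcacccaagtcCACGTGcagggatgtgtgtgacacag
The Per1 window precedes a start annotated inside the gene as placed above, and not its outermost start. The Ciart window also overlaps the gene as placed above, which reaches to 95882257. Ciart holds 3 copies in 118 bases and Per1 holds 1. The promoter windows of Nr1d2, Per3 and Rora held no CACGTG. The motif was found in 7.15% of all 32851 promoters of the table, and in a promoter of 11.9% of tested genes, 11.8% of higher genes and 9.24% of lower genes. The Dusp1 promoter (chr17:26508573-26508635, minus strand) is shown because it was the only one of 8 matched early genes with the cyclic AMP response element TGACGTCA, next to an E-box.
Dusp1: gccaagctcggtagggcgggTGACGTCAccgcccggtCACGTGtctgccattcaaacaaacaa
That element was found in 1.79% of all promoters and in 3.6% of tested, 4.31% of higher and 2.54% of lower genes. A match is a string of letters and not evidence of binding.

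**Figure D4:**
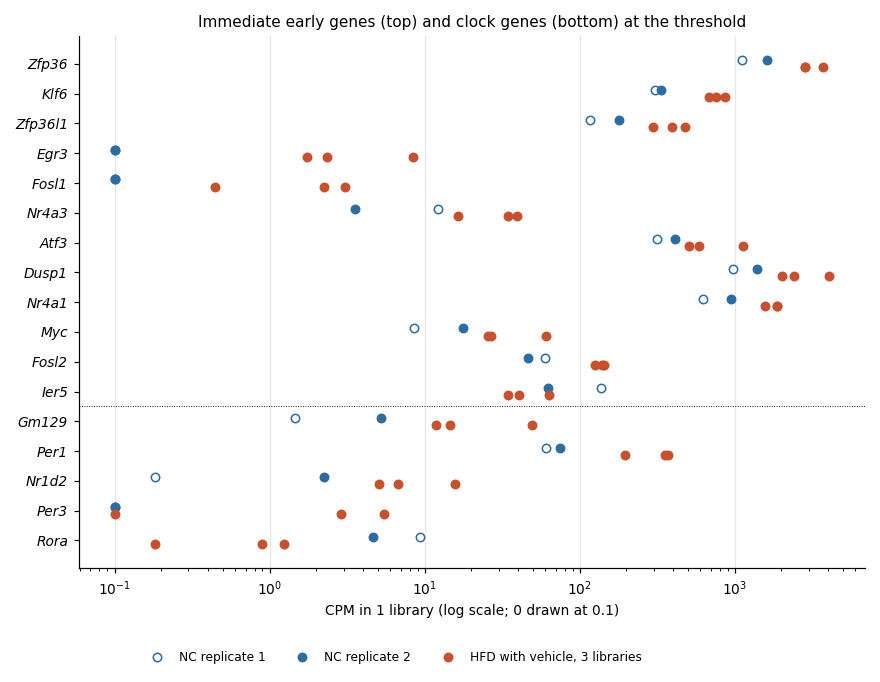
CPM in each library (x axis, log scale, 0 drawn at 0.1) of the 12 immediate early genes (top) and 5 clock genes (bottom) at the threshold, with open circles for NC replicate 1, filled blue circles for NC replicate 2 and red circles for the 3 vehicle libraries. Zfp36, Klf6, Dusp1, Nr4a1 and Per1 were measured at 61 CPM or more in every library, and Egr3, Fosl1 and Per3 were at 0 in both NC libraries.

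Part of the genes of antigen presentation and of the interferon-induced genes were higher, and none was lower in the fit of all libraries. Lower calls were 1 MHC class I gene without vehicle replicate 2 and 1 costimulatory and 1 interferon-stimulated gene without NC replicate 2. The summed levels of B cell, T and NK cell and dendritic cell genes, of cells that also carry class I, class II or costimulatory genes, were higher in every vehicle library too. For the dendritic cell list they were 382 and 399 CPM in NC and 545 to 575 CPM with vehicle. The part of such cells in the values of presentation, costimulatory, interferon-induced and chemokine genes was not tested. Of 25 MHC class I genes 5 were higher and none lower, and of 14 MHC class II genes 2 were higher, with medians of 0.72 and 0.78. B2m, the shared light chain of class I (chromosome 2 from 122147687 to 122153082), rose from 2012 and 2323 to 4232, 4812 and 4733 CPM (log2 fold change 1.08 ± 0.25, 0.99 without NC replicate 1 and 0.79 with library size scaling), with groups well apart. Nlrc5, the transactivator of class I genes, rose from 22 and 14.4 to 98.1, 40.8 and 67.9 CPM (log2 fold change 1.92 ± 0.50). H2-Q4 rose from 42.6 and 45.4 to 112, 92.9 and 96.4 CPM (log2 fold change 1.19 ± 0.35, and 0.90 with library size scaling), and H2-Q5, which is outside the class I list, rose from 26.8 and 25.6 to 103, 52.2 and 85.7 CPM (log2 fold change 1.61 ± 0.40). The H2-Q genes are near copies between which reads can be split. H2-Aa, a class II chain, rose from 1065 and 847 to 1852, 1984 and 1974 CPM (log2 fold change 1.02 ± 0.30, 0.89 without NC replicate 2 and 0.72 with library size scaling), and H2-DMb1, of the complex that loads peptides, rose from 88.5 and 126 to 252, 193 and 214 CPM (log2 fold change 1.03 ± 0.31, 0.81 without NC replicate 1, 0.97 without vehicle replicate 1 and 0.75 with library size scaling). With library size scaling 1 class I gene was higher and 1 lower and no class II gene was called, with medians of 0.48 and 0.49. The class I count was 3 without NC replicate 1 and 13 without NC replicate 2, and the class II count 4 without NC replicate 2. The B2m promoter (chr2:122147528-122147590, plus strand) is shown because it holds 2 of the motifs searched, an interferon-stimulated response element (ISRE) and a kappaB site.
B2m: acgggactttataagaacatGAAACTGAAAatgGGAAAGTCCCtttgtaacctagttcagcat
The first run of capitals is the ISRE and the second the kappaB match on the reverse strand. ISRE matches were found in 3.44% of all promoters and in 4.03% of tested, 5.59% of higher and 3.23% of lower genes, and kappaB matches in 8.46% of all promoters and in 11.9%, 15.2% and 11.1% of these genes.

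Of 30 interferon-stimulated genes 6 were higher and none lower, with a median of 0.52. Zbp1, a sensor of Z-form nucleic acid, rose from 14.4 and 33.6 to 91, 53.5 and 82.3 CPM (log2 fold change 1.65 ± 0.45). Isg20, an exonuclease, rose from 5.28 and 11.2 to 31.7, 23 and 31.2 CPM (log2 fold change 1.80 ± 0.53), Oas2, which makes the activator of RNase L, rose from 29.5 and 19.2 to 87.5, 35 and 98.9 CPM (log2 fold change 1.60 ± 0.51, and 1.34 without NC replicate 2), and Trim25, a ubiquitin ligase of the RIG-I pathway, rose from 54.8 and 111 to 114, 203 and 219 CPM (log2 fold change 1.11 ± 0.48, 0.69 without NC replicate 1, 1.00 without vehicle replicate 2, 0.99 without vehicle replicate 3 and 0.81 with library size scaling). The count was 3 without vehicle replicate 3 and 8 without NC replicate 1, and 3 with library size scaling. Of 17 guanylate-binding and immunity-related GTPases, which attack vacuoles that hold microbes, 15 had a positive change and 3 were at the threshold. Gbp5 had 2 and 0 counts in NC and 130, 17 and 100 counts with vehicle, a ratio of 95.3-fold (95% counting interval 26.1 to 791), and Tgtp1 rose from 0 and 2.8 to 22.6, 16.9 and 30.2 CPM (log2 fold change 4.04 ± 1.39), although its near copy Tgtp2 can share its reads. In both genes vehicle replicate 2 was the lowest of the vehicle libraries, and without NC replicate 2 the list had 5 higher genes. Among costimulatory genes, Cd274, the ligand PD-L1, rose from 15.3 and 26.1 to 72.6, 27.7 and 80 CPM (log2 fold change 1.53 ± 0.61, 1.20 without NC replicate 1, 1.42 without vehicle replicate 1, 1.32 without vehicle replicate 3 and 1.22 with library size scaling), Cd40 rose from 12.2 and 17.9 to 34.4, 24.7 and 47.3 CPM (log2 fold change 1.23 ± 0.50, 0.99 without NC replicate 1, 1.02 without vehicle replicate 3 and 0.92 with library size scaling), and Tnfsf9, the ligand of 4-1BB, rose from 10.6 and 15.7 to 36.4, 25.2 and 34.4 CPM (log2 fold change 1.28 ± 0.45, 1.04 without NC replicate 1 and 0.99 with library size scaling), 3 of 17 in all. The count was 1 without NC replicate 1 or vehicle replicate 3 and 6 without NC replicate 2, and with library size scaling none was higher and 1 lower.

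Of 23 chemokines 6 were higher and none lower, with a median of 1.20, or 0.98 with genes absent from a group set at the detection limit. Ccl22, a dendritic cell and macrophage chemokine that attracts CCR4-bearing T cells, had 3 and 1 counts in NC and 139, 43 and 184 counts with vehicle, a ratio of 70.6-fold (95% counting interval 27.3 to 261). Cxcl16, the ligand of CXCR6 and a scavenger of oxidised lipoprotein, rose from 57.9 and 42.4 to 113, 120.4 and 113 CPM (log2 fold change 1.20 ± 0.37, and 0.91 with library size scaling), with near-equal vehicle libraries. Cx3cl1, fractalkine, was at 0 in NC with 68, 17 and 33 counts, at least 15.9-fold higher. Cxcl9, an interferon-induced ligand of CXCR3, had 26.2 and 24.5 CPM in NC and 137, 19.2 and 158 CPM with vehicle, so that vehicle replicate 2 lay below NC. The chemokine count was 5 without vehicle replicate 2 and 10 without NC replicate 2, and 4 with library size scaling. Of 15 chemokine receptors 3 were higher and Ccr2 lower. Cxcr4, the receptor of CXCL12, rose from 60.5 and 59.2 to 239, 195 and 182 CPM (log2 fold change 1.78 ± 0.61), and Cxcr5, a receptor of B cells and follicular T cells, rose from 0.182 and 1.49 to 25.1, 25.4 and 11.4 CPM (log2 fold change 4.60 ± 1.09). Without NC replicate 2, 6 receptors were higher, and without NC replicate 1 or vehicle replicate 3 none was lower. Among interleukins, Il1rn, the secreted antagonist of IL-1, rose from 6.74 and 48 to 154, 122 and 132 CPM (log2 fold change 2.31 ± 0.66), while Il1a had 16 and 41 counts in NC and 0, 0 and 0 counts with vehicle, at least 8.12-fold lower. Il2rg, the common gamma chain, rose from 129 and 122 to 304, 190.1 and 271 CPM (log2 fold change 1.02 ± 0.34, 0.92 without vehicle replicate 1 and 0.72 with library size scaling), and Lifr, the receptor of leukaemia inhibitory factor, fell from 95.8 and 79.4 to 19.8, 47.7 and 61.2 CPM (log2 fold change -1.03 ± 0.42, and -0.64 without vehicle replicate 1). The Lifr call was lost without NC replicate 1, with a log2 fold change of -0.88.

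Complement genes were called in both directions, 5 of 19 lower and 2 higher, with a median of -0.63, or -0.31 without NC replicate 1 and -0.44 without NC replicate 2. Cfp, properdin, which stabilises the convertase of the alternative pathway, fell from 132 and 250.1 to 83.7, 110.4 and 92.2 CPM (log2 fold change -1.0002 ± 0.35, -0.44 without NC replicate 2, -0.87 without vehicle replicate 1 and -0.92 without vehicle replicate 3). Cfb, the protease of the same convertase, rose from 24.4 and 5.98 to 90.8, 58.4 and 82.8 CPM (log2 fold change 2.34 ± 0.57). Serping1, the inhibitor of C1, had 15 and 36 counts in NC and 0, 0 and 0 counts with vehicle, at least 7.26-fold lower, a call lost without NC replicate 2. Also at the threshold, and named after their values were seen, were C1qa and C4b, which were lower, and C1ra, which was higher. The lower count was 2 without NC replicate 2 or vehicle replicate 3 and 4 without NC replicate 1 or vehicle replicate 2, and the higher count 1 without NC replicate 1 and 3 without NC replicate 2. Of 35 Toll-like and other pattern receptors 2 were higher, Clec4e, a lectin that binds mycobacterial cord factor, from 127 and 143 to 271, 405 and 362 CPM, and Tlr9, an endosomal receptor of DNA, from 10.6 and 11.4 to 73.7, 4.35 and 56.5 CPM, with vehicle replicate 2 of Tlr9 below NC, and with library size scaling none was higher and 2 were lower. The count was 1 without vehicle replicate 3 and 3 without NC replicate 1 or vehicle replicate 2. None of 16 inflammasome genes was at the threshold, 1 to 3 of any list of Fc, scavenger, lysosomal, proton pump and autophagy genes were higher and 0 to 3 lower, and the medians of these lists lay between -0.36 and 0.22. Leaving out NC replicate 2 gave 13 higher autophagy genes, 6 lysosomal and 5 scavenger genes. Among them Psap, the precursor of the saposins that help degrade sphingolipids, rose from 1348 and 1701 to 3769, 1905 and 3618 CPM (log2 fold change 1.02 ± 0.37, 0.87 without NC replicate 1, 0.90 without vehicle replicate 1, 0.94 without vehicle replicate 3 and 0.72 with library size scaling), Sqstm1, the autophagy receptor p62, rose from 124 and 181 to 281, 465 and 233 CPM (log2 fold change 1.10 ± 0.40, 0.86 without NC replicate 1, 0.75 without vehicle replicate 2 and 0.84 with library size scaling), and Atp6v0b, a proton pump subunit, fell from 258 and 209.9 to 81.9, 129 and 90.2 CPM (log2 fold change -1.22 ± 0.35). Elmo1, which carries engulfment signals to RAC, rose from 48.3 and 55.7 to 88.6, 101 and 160.3 CPM (log2 fold change 1.17 ± 0.37, 0.92 without vehicle replicate 3 and 0.84 with library size scaling).

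Iron and stress genes held small numbers of calls. The iron and haem list had 8% higher and 8% lower, and heat shock genes 4.88% each way. The list of the unfolded protein and integrated stress responses had 8.82% higher and none lower. Over all genes the shares were 7.03% and 4.63%. Fth1, ferritin heavy chain, which stores iron (chromosome 19 from 9980600 to 9985111), had 2667 and 3438 CPM in NC and 5512, 11956 and 6593 CPM with vehicle, a log2 fold change of 1.39 ± 0.36, and 0.99 without vehicle replicate 2. Hmox1, heme oxygenase 1, which breaks down haem, rose from 115 and 90.4 to 310.3, 175 and 232 CPM (log2 fold change 1.22 ± 0.39, and 0.92 with library size scaling), while Blvra, biliverdin reductase of the next step, fell from 95.8 and 54.7 to 25.5, 41.9 and 25.3 CPM (log2 fold change -1.28 ± 0.38), and lost its call without NC replicate 1 (-0.81). Fth1 has many processed copies in the genome. Of 25 iron and haem genes 2 were higher and 2 lower. The higher count was 1 without vehicle replicate 2 and 8 without NC replicate 2, and the lower count 1 without NC replicate 2 or vehicle replicate 1 and 3 without NC replicate 1. Of 34 genes of the unfolded protein and integrated stress responses 3 were higher, Dnajc3, from 15.7 and 14.4 to 28, 37.4 and 35.7 CPM, Ddit3, the transcription factor CHOP, from 18.2 and 9.9 to 45.3, 48.2 and 22.5 CPM, and Atf3, from 314 and 412 to 509, 1126 and 589.8 CPM. With library size scaling none of these was called and 3 of the list were lower, and the higher count was 1 without vehicle replicate 2 and 5 without NC replicate 2. Of 41 heat shock genes 2 were higher and 2 lower. Bag3, a partner of HSP70, rose from 27.9 and 17.6 to 78.4, 48.4 and 47.6 CPM (log2 fold change 1.35 ± 0.41), and subunits of the same chaperonin split, Cct3 rising from 1.82 and 9.9 to 22.4, 43 and 42.9 CPM (log2 fold change 2.62 ± 0.69), and Cct8 falling from 121 and 184 to 70.1, 76.2 and 29 CPM (log2 fold change -1.38 ± 0.41, and -1.02 without NC replicate 2). Without NC replicate 2, 10 were higher and none lower, and without vehicle replicate 2, 4 were lower.

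Signalling lists gave 54 higher and 27 lower calls over 12 lists, with medians between -0.03 and 0.56. In the TGF-beta, BMP and activin list of 35 genes, 6 were higher and 4 lower. Beside Tgif1 these held inhibitors of differentiation. Id1 rose from 35.5 and 31.6 to 83.9, 90.5 and 73.3 CPM (log2 fold change 1.30 ± 0.33), and Id3 rose from 219 and 136 to 437, 918 and 451 CPM (log2 fold change 1.76 ± 0.46). Id2, named after its values were seen, rose from 227 and 257 to 536, 665 and 458 CPM (log2 fold change 1.19 ± 0.43, 1.12 without NC replicate 1 and 0.92 with library size scaling). These small proteins bind E-proteins and keep them off DNA, and Id3 is needed for Kupffer cell identity. Id3 was also most of the rise in the summed Kupffer cell list, from 237 and 281 to 510.5 to 1003 CPM. The groups did not overlap for any of the 3 genes. Ltbp4, which binds latent TGF-beta in the matrix, had 56 and 13 counts in NC and 0, 0 and 0 counts with vehicle, at least 9.7-fold lower. The lower count was 2 without vehicle replicate 2 or vehicle replicate 3. Of 39 genes of the TNF receptor family and TRAFs 7 were higher and 2 lower. Traf1, an NF-kappaB-induced adaptor, rose from 0.729 and 5.04 to 27.1, 53.7 and 37.2 CPM (log2 fold change 3.76 ± 0.91), and Tnfrsf22, a decoy receptor, was at 0 in NC with 14, 15 and 30 counts, at least 7.99-fold higher. The higher count was 3 without NC replicate 1 and 9 without NC replicate 2. Socs1, the feedback inhibitor of JAK kinases, rose from 7.29 and 7.28 to 27.7, 22.3 and 40.1 CPM (log2 fold change 2.04 ± 0.53), and Nfkbia, the inhibitor IkappaB alpha, rose from 268 and 328 to 568, 691 and 597 CPM (log2 fold change 1.05 ± 0.37, 0.93 without NC replicate 1, 0.97 without vehicle replicate 2 and 0.77 with library size scaling).

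Of 48 genes of the PI3K, AKT and mTOR pathway 5 were higher and 2 lower. Pik3r1, the regulatory subunit p85 alpha, rose from 3.46 and 4.48 to 53.1, 30.6 and 36.2 CPM (log2 fold change 3.32 ± 0.66), and 3.16 without NC replicate 1. Foxo3, a transcription factor that AKT keeps out of the nucleus, rose from 12.2 and 27.6 to 122, 31.7 and 122 CPM (log2 fold change 2.20 ± 0.58), with vehicle replicate 2 close to NC. Pik3r4, of the class III kinase complex of autophagy, rose from 2.55 and 5.6 to 22.6, 6.89 and 29 CPM (log2 fold change 2.25 ± 0.77, and 1.80 without NC replicate 1). Mlst8, a subunit of both mTOR complexes, fell from 19.3 and 21.7 to 5.77, 5.98 and 0.743 CPM (log2 fold change -2.28 ± 0.87, and -1.75 without vehicle replicate 3). The higher count was 3 without vehicle replicate 1 and 9 without NC replicate 2, and none was lower without vehicle replicate 3. Of 68 MAP kinase and dual-specificity phosphatase genes 7 were higher and 4 lower. Dusp4, a nuclear phosphatase of ERK, was at 0 in NC with 5, 34 and 21 counts, at least 7.52-fold higher. Mapk14, the kinase p38 alpha, fell from 125 and 48.6 to 32, 40.4 and 24.8 CPM (log2 fold change -1.42 ± 0.45, and -0.57 without NC replicate 1), and Mapk7, ERK5, fell from 33.9 and 23.7 to 10.9, 9.97 and 11.2 CPM (log2 fold change -1.43 ± 0.49, and -1.14 without NC replicate 1). The lower count was 0 without NC replicate 1 and 9 without NC replicate 2. Of 79 purinergic and other G protein-coupled receptors and their regulators 8 were higher and 5 lower. Rgs1, which shortens signals of chemokine receptors, rose from 56.6 and 94.7 to 346, 582 and 238 CPM (log2 fold change 2.36 ± 0.60). Gpr84, a receptor of medium-chain fatty acids (chromosome 15 from 103308233 to 103310670), was at 0 in NC with 40, 89 and 47 counts, at least 22.1-fold higher. Gpr174, a lysophosphatidylserine receptor of lymphocytes, had 0 and 2 counts in NC and 57, 62 and 25 counts with vehicle, a ratio of 55.6-fold (95% counting interval 15.1 to 463). Gpr116 (now Adgrf5), an adhesion receptor of endothelium and lung epithelium, had 94 and 64 counts in NC and 0, 0 and 0 counts with vehicle, at least 22.3-fold lower. The higher count was 6 without NC replicate 1 and 18 without NC replicate 2, and the lower count 4 without vehicle replicate 3 and 8 without NC replicate 2. Of 50 genes of AMP kinase and cyclic AMP 5 were higher and 2 lower, with Akap10, an anchor of protein kinase A, rising from 3.82 and 4.11 to 15.3, 8.52 and 20.8 CPM (log2 fold change 1.90 ± 0.66), and Pde7b, a phosphodiesterase, rising from 0.182 and 3.92 to 13.3, 4.72 and 33.7 CPM (log2 fold change 3.06 ± 1.09, 2.13 without NC replicate 1 and 2.17 without vehicle replicate 3), in a list whose higher count was 2 without vehicle replicate 3 and 7 without NC replicate 2 and whose lower count was 1 without NC replicate 1 or vehicle replicate 3 and 7 without NC replicate 2. Of 39 Notch and WNT genes 2 were higher and 3 lower, with Ctnnb1, beta-catenin, falling from 67.4 and 45.8 to 25.1, 25.6 and 16.9 CPM (log2 fold change -1.33 ± 0.48, and -1.11 without vehicle replicate 3), a call lost without NC replicate 1 (-1.01). Of 69 nuclear receptors and macrophage transcription factors 7 were higher and 3 lower, with Vdr, the vitamin D receptor, at 0 in NC and with 31, 0 and 88 counts in vehicle, so that the groups overlapped, and Rarg, a retinoic acid receptor, falling from 27.3 and 19.8 to 5.77, 8.52 and 10.4 CPM (log2 fold change -1.52 ± 0.54, -1.26 without NC replicate 1 and -1.27 without vehicle replicate 1). The higher count of that list was 2 without vehicle replicate 3, and the lower count 1 without vehicle replicate 1 or vehicle replicate 3. Its median was 0.14, or 0.31 without NC replicate 1 and 0.15 without NC replicate 2.

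**Figure D5:**
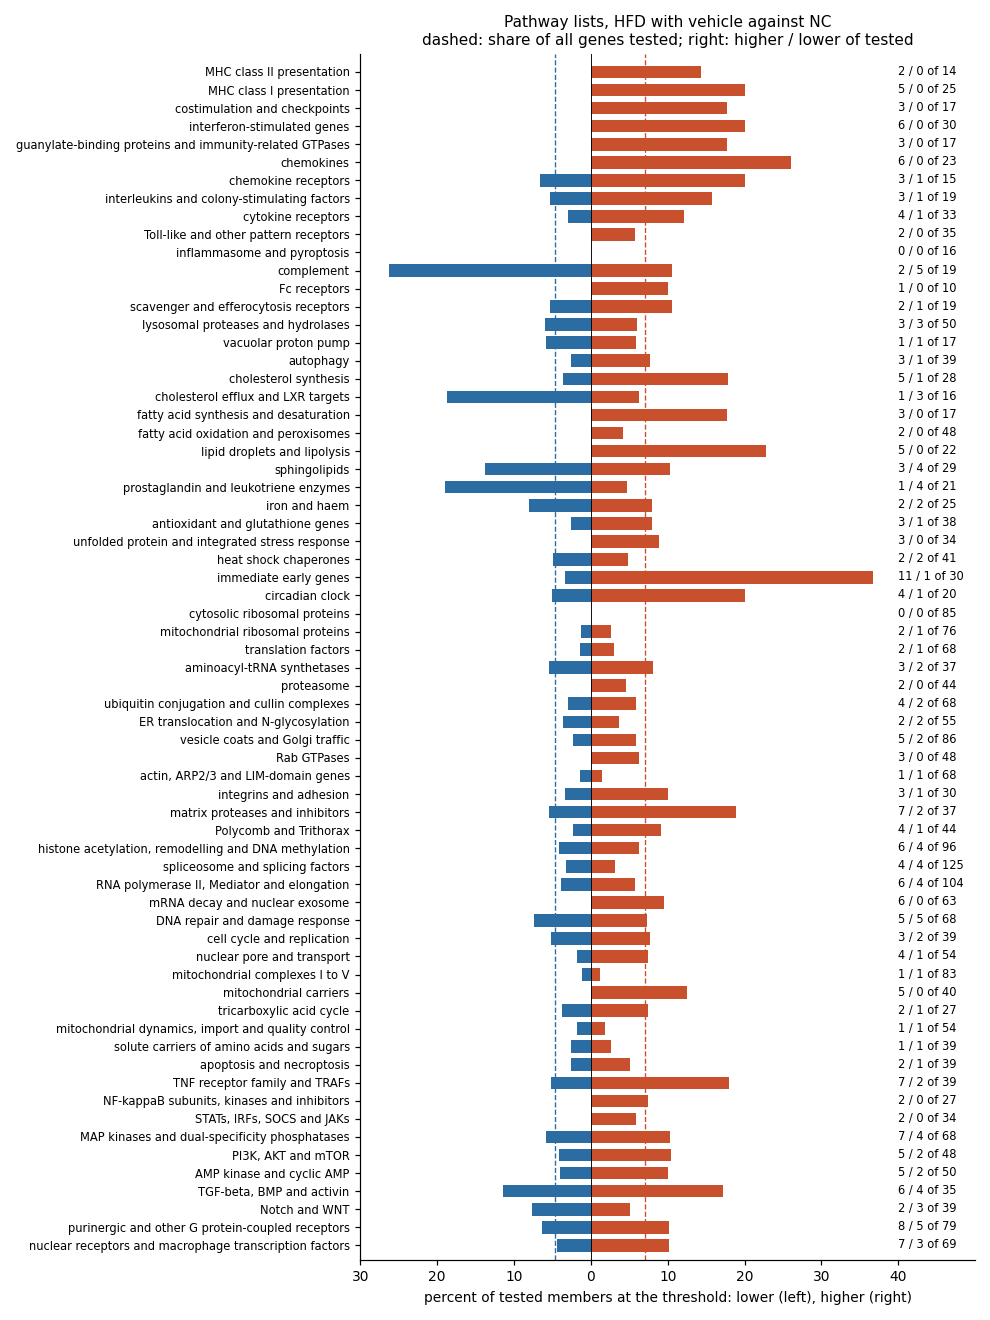
Percent of the tested genes of the pathway lists that were higher (right) and lower (left) at the threshold, with dashed lines at the shares over all genes tested, 7.03% and 4.63%, and the counts of higher, lower and tested genes at the right margin. In this fit of all libraries immediate early genes reach furthest to the right, with 11 of 30 genes, and complement furthest to the left, with 5 of 19 genes. Immediate early genes lose that place without NC replicate 1, without NC replicate 2 and with library size scaling, and complement when either NC library is left out.

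Proteases, adhesion and membrane traffic were next. Of 37 matrix proteases and inhibitors 7 were higher and 2 lower. Adam17, the sheddase of TNF and of Notch and growth factor ligands, rose from 31.9 and 16.8 to 57.3, 46.2 and 58.5 CPM (log2 fold change 1.15 ± 0.41, 0.79 without NC replicate 2 and 0.84 with library size scaling), and Adamts14, a procollagen processing enzyme, was at 0 in NC with 37, 25 and 38 counts, at least 13.4-fold higher. Adam23, an adhesion protein without protease activity, had 28 and 36 counts in NC and 0, 0 and 0 counts with vehicle, at least 9.08-fold lower. The higher count was 5 to 7 when single libraries were left out, and the lower count 1 without NC replicate 2 and 3 without NC replicate 1 or vehicle replicate 3. Of 30 integrin and adhesion genes 3 were higher and 1 lower. Ninj1, the plasma membrane protein that executes lytic rupture of dying cells, rose from 76.7 and 85.9 to 202, 326 and 185 CPM (log2 fold change 1.55 ± 0.47). Tetraspanins moved in opposite directions, with Cd82 rising from 27.9 and 23.5 to 50.6, 60.2 and 95.9 CPM (log2 fold change 1.42 ± 0.39), and Cd81 falling from 158 and 69.1 to 10.4, 32.1 and 16.6 CPM (log2 fold change -2.52 ± 0.81, and -1.79 without NC replicate 1). The adhesion count was 2 without vehicle replicate 1 or vehicle replicate 2 and 5 without NC replicate 2 in the higher direction and 0 without NC replicate 1 and 4 without NC replicate 2 in the lower. The lists of actin, Rab and vesicle coat genes had between 1.47% and 6.25% higher and none to 2.33% lower, below the shares over all genes, with 6 to 18 higher genes a list without NC replicate 2. Among them Rab3a, a GTPase of regulated secretion, was at 0 in NC with 42, 47 and 31 counts, at least 15.4-fold higher. Pak4, a kinase downstream of CDC42, rose from 1.09 and 0.374 to 7.1, 5.26 and 16.4 CPM (log2 fold change 3.67 ± 1.05). Pdlim1 fell from 73.9 and 102 to 30, 34.6 and 53 CPM (log2 fold change -1.17 ± 0.36, -0.89 without NC replicate 2 and -0.96 without vehicle replicate 1), opposite to its adjusted relative Pdlim4.

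Nuclear lists, 8 in all, had between 3.2% and 9.52% of tested genes higher, shares around the background of 7.03%, and none to 7.35% lower. Within them single genes were called in both directions. Chd7, a chromatin remodeller, rose from 13.5 and 12.7 to 62.2, 69.3 and 65.2 CPM (log2 fold change 2.32 ± 0.60), with even values in each group. Med29, a Mediator subunit, rose from 4.01 and 4.48 to 20.9, 17.8 and 19.8 CPM (log2 fold change 2.19 ± 0.55), and Prpf8, the core of the spliceosome, rose from 18 and 18.9 to 81.5, 29.4 and 99.9 CPM (log2 fold change 1.93 ± 0.52). Taf12, of TFIID, fell from 35.7 and 58.6 to 10.4, 15.2 and 16.6 CPM (log2 fold change -1.74 ± 0.53, and -1.31 without NC replicate 2), and Cdk9, the kinase that releases paused polymerase, fell from 123 and 27.1 to 14.4, 21.2 and 25.8 CPM (log2 fold change -1.88 ± 0.60), a value carried by NC replicate 1 (-0.39 without it). Of 63 mRNA decay genes 6 were higher and none lower, with Zfp36 and Zfp36l1 among them, Smg6, the endonuclease of nonsense-mediated decay, rising from 1.82 and 0.187 to 18, 7.8 and 11.6 CPM (log2 fold change 3.61 ± 1.01), and Rc3h2, roquin 2, rising from 8.38 and 5.42 to 22, 16 and 32 CPM (log2 fold change 1.75 ± 0.61, and 1.498 without NC replicate 2). That count was 14 without NC replicate 1. Of 68 DNA repair genes 5 were higher and 5 lower. Rad50, of the complex that binds double-strand breaks, was at 0 in NC with 34, 9 and 23 counts, at least 8.96-fold higher, and Gadd45b, a stress-induced regulator of p38 signalling, rose from 35.3 and 71.3 to 117, 150.3 and 128 CPM (log2 fold change 1.31 ± 0.43, and 0.90 without NC replicate 1). Xrcc1, the scaffold of single-strand break repair, fell from 32.6 and 44.4 to 3.33, 13.2 and 6.94 CPM (log2 fold change -2.29 ± 0.71), and held its call when either NC library was left out. The higher count of the repair list was 3 without vehicle replicate 1 and 10 without NC replicate 2, and the lower count 3 without NC replicate 2, vehicle replicate 1 or vehicle replicate 3 and 8 without NC replicate 1. Of 39 cell cycle genes 3 were higher and 2 lower, with Ccnd2, cyclin D2, rising from 23.9 and 17 to 52.2, 57.7 and 44.1 CPM (log2 fold change 1.33 ± 0.49, and 1.14 without NC replicate 2), and Rrm2, of ribonucleotide reductase, falling from 15.7 and 7.66 to 0.222, 3.63 and 0.743 CPM (log2 fold change -2.88 ± 0.95, and -2.25 without NC replicate 1). The higher count of that list was 1 without vehicle replicate 1 and 12 without NC replicate 2, and 6 were lower without NC replicate 1. Without NC replicate 2 these 8 lists gave up to 17 higher and 12 lower genes.

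Genes of protein synthesis gave few calls. Of 85 cytosolic ribosomal protein genes 83 had a positive change, with a median of 0.44, and none was at the threshold. In 55 of them every vehicle library lay above both NC libraries, which held for 15% of all genes tested. Without NC replicate 1, 75 were positive, with a median of 0.33, and without NC replicate 2, 82, with a median of 0.69. With library size scaling 66 were positive, with a median of 0.17 where that of all genes was -0.26. Many of these genes have processed copies that share reads. Mitochondrial ribosomal proteins had a median of -0.21, with 2 of 76 higher and 1 lower, Mrpl34, from 54.5 and 39.2 to 12.4, 19.2 and 12.9 CPM (log2 fold change -1.65 ± 0.46). Without NC replicate 2, 10 of the mitochondrial list and 5 of the cytosolic list were higher. Of 37 aminoacyl-tRNA synthetases 3 were higher and 2 lower, with 11 higher without NC replicate 2 and 4 lower without NC replicate 1. Mars2, the mitochondrial methionyl enzyme, was at 0 in NC with 51, 56 and 119 counts, at least 30.7-fold higher. Eprs, which charges both glutamate and proline, rose from 8.74 and 7.28 to 21.3, 23.8 and 23.5 CPM (log2 fold change 1.51 ± 0.51), and Gars, the glycyl enzyme, fell from 58.3 and 60.3 to 23.8, 26.8 and 29.7 CPM (log2 fold change -1.15 ± 0.44, -1.09 without NC replicate 2 and -1.02 without vehicle replicate 1). In the ubiquitin list Ube2g2, the conjugating enzyme of degradation from the endoplasmic reticulum, rose from 8.2 and 3.36 to 35.3, 49.5 and 31 CPM (log2 fold change 2.74 ± 0.48), and Rfwd2 (now Cop1), a ligase of JUN and ETS factors, fell from 49.9 and 25.2 to 4.88, 4.35 and 3.22 CPM (log2 fold change -3.17 ± 0.58), in a list with 4 higher and 2 lower of 68 (11 and 6 without NC replicate 2). Psmc6, an ATPase of the proteasome cap, rose from 16.4 and 14.2 to 45.1, 49.3 and 45.6 CPM (log2 fold change 1.61 ± 0.43), and 1 other of 44 proteasome genes, Psmd11, was higher, against 9 without NC replicate 2.

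Mitochondrial complexes I to V had 1 higher and 1 lower of 83 and a median of -0.07, with 11 higher without NC replicate 2. The mitochondrial carriers, which move metabolites over the inner membrane, had 5 higher and none lower of 40. Beside Ucp2 these included Slc25a32, linked to folate and flavin transport, which rose from 0 and 1.12 to 5.55, 21.6 and 2.48 CPM (log2 fold change 4.10 ± 1.41, and 2.81 without vehicle replicate 2), Slc25a33, a pyrimidine nucleotide carrier, which rose from 0 and 0.747 to 2.89, 15.4 and 6.19 CPM (log2 fold change 4.39 ± 1.61, 3.44 without NC replicate 1 and 3.54 without vehicle replicate 2), and Slc25a1, the citrate carrier, named after its values were seen. The other carriers named with values had few counts in NC, and the median over the 40 was -0.01. The count was 3 without vehicle replicate 2 and 7 without NC replicate 2. In the tricarboxylic acid cycle Fh1, fumarase, rose from 3.28 and 0.934 to 14.2, 15.8 and 12.1 CPM (log2 fold change 2.72 ± 0.74), and Idh1, the cytosolic NADP-linked isocitrate dehydrogenase, fell from 68.5 and 186 to 47.7, 39.5 and 36.2 CPM (log2 fold change -1.63 ± 0.55, and -0.71 without NC replicate 2). Mfn1, which fuses outer membranes, fell from 18.6 and 15.3 to 3.33, 4.35 and 3.72 CPM (log2 fold change -2.15 ± 0.72), in a list of 54 genes of dynamics, import and quality control with 1 higher and 1 lower, or 8 higher without NC replicate 2.

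Part of the calls were genes found in one group and nearly absent from the other. Of the 801 higher genes 311 (38.8%) had 3 counts or fewer in both NC libraries, and 220 of these were at 0. In the vehicle libraries the median of these genes was 15 counts, and 4 of the 311 had at least 50 counts in every vehicle library. Of the 528 lower genes 101 (19.1%) had 3 counts or fewer in every vehicle library, and 61 were at 0. The shares of 38.8% and 19.1% cannot be compared, since low counts were asked of 2 NC libraries but of 3 vehicle libraries. The NC libraries also held more tested genes at 0, and the share of such genes among all tested genes was not taken. The leading ones by p were Saa2, Ambp, a plasma protease inhibitor precursor made by hepatocytes, with 90 and 132 counts in NC and 0, 0 and 1 counts with vehicle, and Aqp1, a water channel of endothelium and cholangiocytes, with 102 and 171 counts in NC and 0, 1 and 0 counts with vehicle. For Ambp the ratio of NC to vehicle was 288-fold (95% counting interval 51.1 to 11414). These counts cover counting error only, since PCR copies of a molecule could not be recognised. At these depths 3 counts correspond to 0.544 to 0.743 CPM in a library, and a difference below that level was not detectable.

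Across promoters, the other motifs searched were counted in all promoters and in those of tested, higher and lower genes. The PU.1 site GAGGAAGT, the site of the macrophage factor, was in 3.2% of all promoters and in 4.13% of tested, 4.47% of higher and 4.62% of lower genes. The AP-1 site TGANTCA was in 7.81% of promoters and 6.43%, 7.19% and 6% of these genes, and the sterol element TCACNCCAC in 1.24% of promoters and 1.33%, 1.76% and 0.924%. The hypoxia element ACGTG, which every CACGTG contains, was in 19.6% of promoters and 29.4%, 29.1% and 27.7%. A gene with several promoters was counted once if any of them held the motif.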

How the data were processed

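RNA of sorted liver macrophages was sequenced, and the deposited table holds raw counts per gene made by the authors, one column a library. The methods name bowtie2 and RSEM, whereas the submitters' processing notes name TopHat2 and edgeR, so that the counter behind the table is not settled. Strand was not stated, and the Rn45s counts were kept. Each of the 9 columns matched 1 sample by name, and the groups came from the labels.

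Counts were fitted with edgeR 4.0.16 (R 4.3.3) by quasi-likelihood over all 9 libraries in 3 groups, after filterByExpr and TMM scaling, and vehicle was tested against NC. The filter left 11393 genes. The biological coefficient of variation was 0.65, and the total count per library sets the precision, 3 counts being the detection limit used for genes absent from a group. P-values were adjusted over all genes by the Benjamini-Hochberg method. The scripts were tested on simulated data.

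The named genes were those with an adjusted p under 0.05, the 12 leading genes by p in either direction among those with separated groups and a mean of at least 50 CPM, the 4 with the smallest p of each of 82 lists, the defining cell type markers, and the 3 leading genes in each direction of those with 3 counts or fewer in 1 group. The members and lists were chosen with earlier results of these data known. Alternatives changed the scaling, the filter, the tool (DESeq2 1.42.0), the libraries in the fit, the Rn45s counts and the replicate block. Promoter sequences and positions came from RefSeq (GRCm38.p6). The DPI libraries entered the fit only. A few genes and 1 list that the rule named are not reported here.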

Additional observations from a re-analysis of the deposited data

How the results depend on the processing

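Counts of genes higher and lower (801 and 528 in the report) kept their size within 1.5 times under edgeR's RLE factors, without the filter, under DESeq2 and the likelihood ratio test, in the NC and vehicle libraries alone, and with Rn45s removed. Requiring 10 counts in every library left 6760 genes and gave 381 higher, 345 lower and 1 adjusted. Scaling by library size gave 933 lower and 1 adjusted, and turned the share of higher calls from 60.3% to 36.6%. The adjusted count of 7 became 52 without the filter, 312 under DESeq2, 280 under the likelihood ratio test and 0 with the NC and vehicle libraries alone, where 1068 genes had an unadjusted p under 0.05 in edgeR's test. The replicate block gave 610 higher, 287 lower and 0 adjusted, with 1031 at an unadjusted p under 0.05. Deviations of same-numbered NC and vehicle libraries from their group means correlated at 0.0596 and 0.0841. With 2 NC libraries these deviations mirror each other, so that the values cannot show whether the numbers pair the samples. Which calls the block lost says nothing of an effect's size. When single libraries were left out, higher counts ran from 678 to 1793, lower counts from 349 to 841 and adjusted counts from 1 to 568, the highest each time without NC replicate 2. Of the 163 gene values, 48 lost their call without NC replicate 1, 24 with library size scaling, 22 with the replicate block, 18 and Alox15 without NC replicate 2, and at most 18 under each other alternative. The log2 fold change of Alox15 ran from -3.73 without NC replicate 1 to 0.48 without NC replicate 2, where its direction turned. The cause of these changes was not tested, and part of the fits also held fewer genes or samples.

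With 2 NC libraries, each apart from the others on 1 of the first 2 principal components, the spread of the NC group rests on a single difference. The fit assumes that it varies like the other groups. The 5 libraries held 4565492 to 5518176 counts, of which Rn45s took 27% to 44.5%, so that genes below about 1 CPM are measured by a few counts.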
